A study of Mus musculus with 10 samples.

Results

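Genes of lysosomal enzymes and lysosomal membrane proteins were followed in BM-derived eosinophils (BMEos), BM-derived basophils (BMBs) and BM-derived mast cells of the mouse. The list holds 36 genes, of 19937 genes that the array annotation names, chosen by name: 10 proteases, 10 enzymes of glycan breakdown (glycosidases and the sulfatase Sgsh), 7 lipid hydrolases and lipid handling proteins, 7 membrane, channel and proton pump proteins, and 2 others, the regulator Tfeb and the secreted protein progranulin (Grn). All 36 genes were measured, each by 1 probe set that carries its symbol and no other.

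RNA was hybridised to Affymetrix GeneChip Mouse Gene 1.0 ST arrays, 10 in all, with 1 array per condition. On the C57BL6/N background, Slpi-/- and wild-type (B6) BM cells gave BMEos with LPS for 3 h, BMEos without LPS, BMBs loaded with anti-TNP-IgE (1 h) and challenged with TNP-ovalbumin (12 h, written IgE here), BMBs without it, and unstimulated mast cells. Slpi encodes a secreted inhibitor of serine proteases. BMBs and mast cells grew in interleukin 3, and BMEos in Flt3 ligand, stem cell factor and then interleukin 5, so culture and cell type cannot be told apart, and how many mice or cultures each array pooled was not stated. The values are log2 signals, and an array's background was the 95th percentile of its olfactory receptor genes (5.56 to 5.78). Since each condition had 1 array, the Slpi-/- and B6 arrays served as the 2 samples of each cell type or stimulus, and limma p-values measure only the spread between such pairs.

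Lysosomes are acidic organelles in which hydrolases break down proteins, glycans and lipids delivered by endocytosis, phagocytosis and autophagy. A vacuolar proton pump keeps them acidic, and heavily glycosylated membrane proteins line them. TFEB and related factors of the MiT family can raise many lysosomal genes together through a DNA element called CLEAR, built around the E-box CACGTG. In mast cells, basophils and eosinophils, secretory granules are related to lysosomes and share some of their enzymes.

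The labels were borne out by most marker genes. Prg2, a granule protein gene of eosinophils, read 12.02 to 12.35 on the BMEos arrays and 5.58 or less elsewhere, Mcpt8, a basophil protease gene, lay between 12.72 and 13.29 in BMBs, and the mast cell chymase gene Cma1 read 12.19 and 11.99 on the Slpi-/- and B6 mast cell arrays. Mrgprb1 was below background on both mast cell arrays, and Mcpt4 on the B6 one. Of 7 basophil markers 5 were higher in BMBs than in mast cells. Fcer1a was lower, with 11.47 and 11.43 in Slpi-/- and B6 BMBs against 12.24 and 12.16 in mast cells. Gata2 read 12.27 and 12.20 against 12.10 and 12.01 in the same order. The mast cell markers Cpa3 (12.94 and 12.94) and Tpsb2 (10.81 and 11.02) were also strong in unstimulated BMBs. Slpi read 5.93 to 6.55 on the 5 Slpi-/- arrays, against 7.96 to 11.42 on the B6 arrays of BMEos and BMBs, but B6 mast cells read 6.53, so the genotype label of the mast cell pair has no check. Xist, from the inactive X chromosome, read 9.66 and 9.72 in Slpi-/- and B6 BMEos given LPS and 4.90 or less on all others, while the Y-linked Eif2s3y read 3.54 and 3.22 there and at least 7.62 elsewhere, so LPS and the sex of the donors cannot be told apart. Of 14 measured macrophage and dendritic cell markers, 7 to 9 were above background on each BMEos or BMB array and 0 to 2 on the mast cell arrays. Of 10 neutrophil markers, 6 to 9 were above background on the BMEos arrays, where Ngp read 10.51 to 11.18. On the BMB arrays 3 to 8 of these 10 were above background, and on the mast cell arrays 0 to 2. Their part in the results was not tested, and in bulk samples fewer cells of a type and less RNA per cell cannot be told apart.

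The promoters of some of these genes carry the CLEAR core, and the letters are shown because 4 of the 6 genes printed fell with LPS in BMEos. RefSeq windows of 250 bases before to 50 bases after a gene's start (GRCm38.p6) were found for 31 of the 36 genes. The palindrome TCACGTGA, which reads alike on both strands, was in the windows of 6 of them (19.4%) and of 1.12% of all 27025 genes with windows. Each stretch below is 48 bases, 5′ to 3′ on the gene's own strand, with the palindrome in capitals (for Cln3, the longer GTCACGTGAC, which contains it), and the first base of TCACGTGA is counted from the start of the gene, negative upstream.
Ctsd (chr7:142387899-142387946, minus strand, element starting at base -99): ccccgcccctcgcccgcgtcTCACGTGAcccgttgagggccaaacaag
Ctsa (chr2:164833740-164833787, plus strand, element starting at base -13): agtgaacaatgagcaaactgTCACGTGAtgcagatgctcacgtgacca
Gla (chrX:134601206-134601253, minus strand, element starting at base -228): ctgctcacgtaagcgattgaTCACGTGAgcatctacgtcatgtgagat
Gla (chrX:134601173-134601220, minus strand, element starting at base -195): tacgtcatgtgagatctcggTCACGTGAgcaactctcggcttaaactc
Mcoln1 (chr8:3500453-3500500, plus strand, element starting at base -46): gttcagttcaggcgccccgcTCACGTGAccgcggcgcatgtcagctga
Cln3 (chr7:126583331-126583378, minus strand, element starting at base -122): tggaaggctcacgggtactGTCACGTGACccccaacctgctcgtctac
Atp6v0d1 (chr8:105566041-105566088, minus strand, element starting at base -4): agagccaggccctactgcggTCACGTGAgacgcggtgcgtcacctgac
Ctsa held a second palindrome a few bases further on, written in lower case in its stretch, and Gla had 2 palindromes in its window. The shorter TCACGTG, searched on both strands and contained in every palindrome, was in the windows of 12 of the 31 genes (38.7%) against 4.29% of all genes, adding Gaa, Glb1, Lamp1, Lgmn, Naglu and Sgsh. The plain E-box CACGTG was in 13 (41.9%) against 8.09% of all genes, adding Ctsl. Tfeb and Grn had windows with none of these letters. A match is a description of the sequence and does not show that a factor binds there.

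As a group these genes were strongly expressed. Their median signal was between 9.01 and 9.81 on each array, and all 36 were above background on every BMEos and BMB array. On both mast cell arrays 32 of 36 were above background. The 4 below it were Ctsh, Ctsl, Ctss and Lgmn, all cysteine proteases. These 4 entered the tests through the BMEos and BMB arrays only, so their differences from mast cells are also given as lower limits. In unstimulated cells, the mean was highest in BMEos for 9 of the 36 genes, in BMBs for 24 and in mast cells for 3. It was lowest in BMEos for 12, in BMBs for 0 and in mast cells for 24. These levels are ordered within each gene, since different probe sets cannot be compared.

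**Figure D1:**
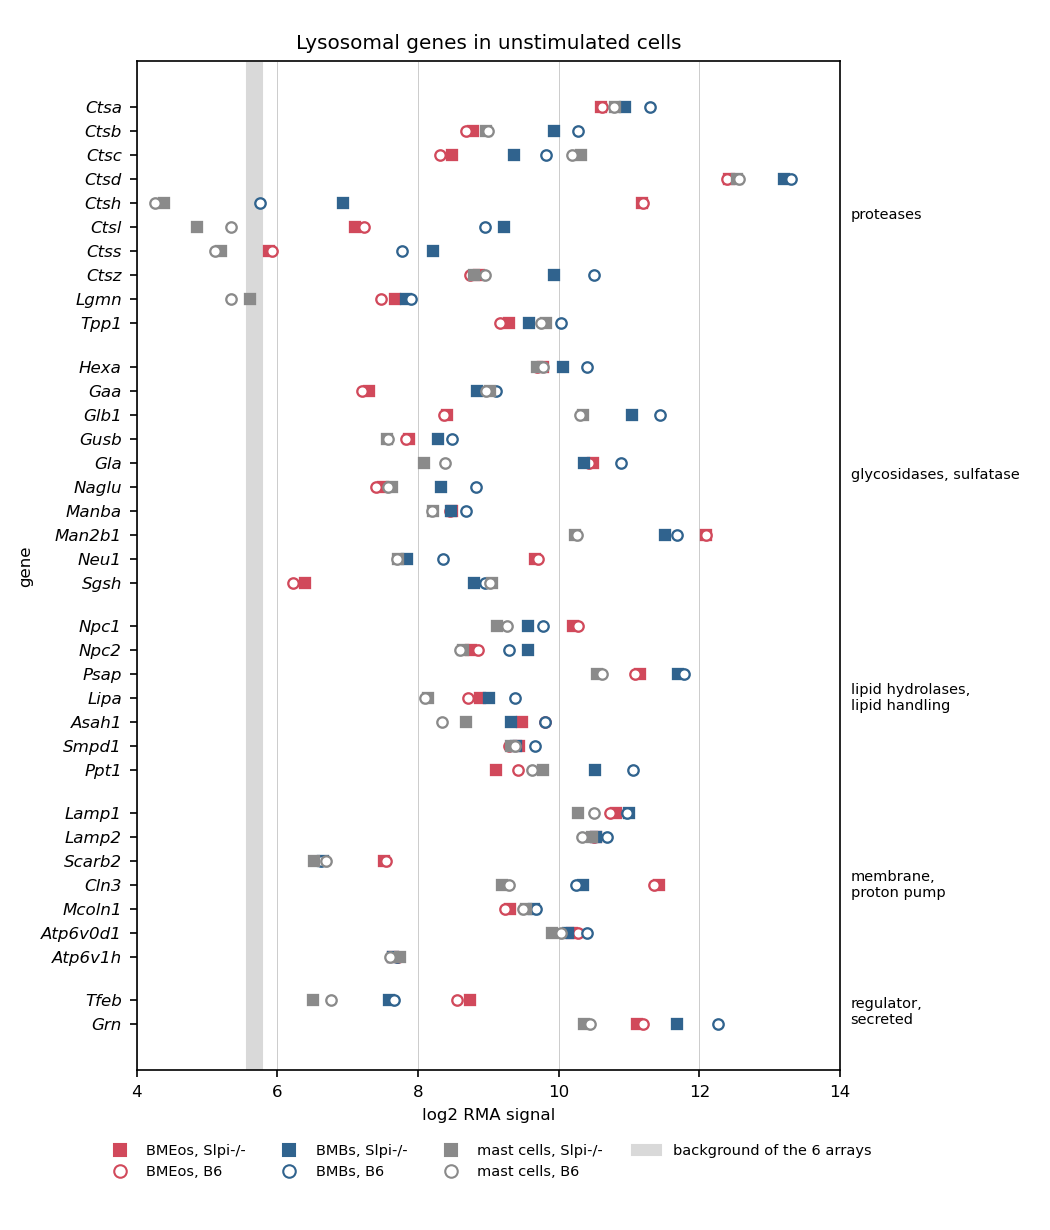
Log2 RMA signals (x axis) of the 36 lysosomal genes (rows, grouped by role) in unstimulated BMEos, BMBs and mast cells, with filled squares for Slpi-/- and open circles for B6 arrays and the range of the 6 array backgrounds in grey. Ctsh, Ctsl, Ctss and Lgmn lie within or below the background in mast cells, and Ctsh stands at 11.19 and 11.20 in BMEos.

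The first comparison asked how basophils and mast cells, both grown in interleukin 3, differ in their lysosomal genes. In BMBs 24 of the 36 genes were higher than in mast cells and 1 was lower (limma, adjusted p under 0.05), with a median log2 difference of 0.81, against -0.01 over all 12998 genes tested. Among all genes 36.7% passed, 18.8% higher and 17.9% lower. The higher members included 7 of 10 proteases, 7 of 10 glycan enzymes, 6 of 7 lipid genes, and both Tfeb and Grn, but 2 of the 7 membrane and pump genes. Those 2 were Lamp1 and Cln3. Ctsh, Ctsl, Ctss and Lgmn are among those 7 proteases and passed the filter only through BMBs and BMEos. Without these 4 genes, 20 of 32 were higher and 1 lower, and the median was 0.65.

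Some markers of other cells were higher in BMBs too. Of 14 measured macrophage and dendritic cell markers 10 were tested, and 9 of them were higher than in mast cells. On the B6 and Slpi-/- mast cell arrays 0 and 2 of the 14 were above background. Most therefore passed the filter only through BMBs or BMEos, which largely set this count. Of the neutrophil markers 2 of 10 were higher (Ly6g and Mmp8), a share close to the 18.8% of all genes. Of the megakaryocyte and erythroid markers 3 of 4 were higher (Ppbp, Pf4 and Gp9). The other marker tested, Itga2b, was lower, with 10.87 and 10.98 in Slpi-/- and B6 BMBs and 11.55 and 11.47 in mast cells. Mmp8, Ppbp and Pf4 were below background on both mast cell arrays, so they too passed the filter only through BMBs or BMEos. The neutrophil marker gene Ly6g read 12.68 and 12.38 in Slpi-/- and B6 BMBs, against 5.70 and 5.38 in mast cells, and the platelet chemokine gene Ppbp 10.81 and 11.27, against 5.16 and 4.75. Their part in the lysosomal differences was not tested.

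Cathepsin L, a cysteine endopeptidase encoded by Ctsl, differed most. Ctsl read 9.22 and 8.95 in Slpi-/- and B6 BMBs, against 4.86 and 5.34 in mast cells. The groups stood far apart, and because mast cells were below background the difference is given only as a limit, at least 10.2-fold. Cathepsin S (Ctss), known for trimming the invariant chain of MHC class II, read 8.21 and 7.77 in Slpi-/- and B6 BMBs, against 5.20 and 5.12 in mast cells, at least 4.8-fold higher in BMBs. Legumain (Lgmn), which cuts after asparagine, read 7.83 and 7.90 against 5.62 and 5.35 in the same order, at least 4.4-fold higher in BMBs. The invariant chain gene Cd74, among the dendritic cell markers, also read 9.47 and 8.47 in Slpi-/- and B6 BMBs and 5.08 and 5.21 in mast cells.

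Ctsc, the dipeptidyl peptidase that activates granule serine proteases, was the 1 gene that was lower in BMBs. Its signals were 9.36 and 9.82 in Slpi-/- and B6 BMBs and 10.32 and 10.19 in mast cells (log2 difference -0.66 ± 0.16, adjusted p = 0.0191). It no longer passed without the Slpi-/- array of BMBs or that of mast cells. Among enzymes of glycan breakdown, Gla, which encodes alpha-galactosidase A, read 10.36 and 10.88 in Slpi-/- and B6 BMBs, against 8.09 and 8.39 in mast cells, a 5.23-fold difference (adjusted p = 3.19e-05). Man2b1, a lysosomal alpha-mannosidase, followed with a log2 difference of 1.35 ± 0.10 and Naglu, which acts on heparan sulfate, with 0.97 ± 0.16. The 3 that did not pass were Gaa (-0.03), which breaks down glycogen, the sialidase Neu1 (0.39) and the heparan sulfatase Sgsh (-0.16).

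Lipid genes moved to a similar degree. Psap, the precursor of the saposin activators, was 2.25-fold higher in BMBs, with 11.70 and 11.78 in Slpi-/- and B6 BMBs, against 10.55 and 10.61 in mast cells. Ppt1, a palmitoyl thioesterase, was 2.13-fold higher, Lipa, the acid lipase, 2.11-fold, and Asah1, the acid ceramidase, 2.09-fold. Smpd1, the acid sphingomyelinase, read 9.40 and 9.67 against 9.32 and 9.38 in mast cells and did not pass (0.18, adjusted p = 0.292). Grn, a secreted protein that reaches lysosomes and is cut into granulins, was 2.96-fold higher in BMBs (11.69 and 12.26 against 10.36 and 10.45).

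BMEos were set against BMBs next, since both differ from mast cells but express different granule proteins. In BMEos 7 of 36 genes were higher than in BMBs and 19 lower, with a median log2 difference of -0.45, against -0.03 over all genes. Over all genes 39.7% passed, 18.6% higher and 21.2% lower. Of the 10 proteases, 8 were lower in BMEos and 1 was higher, and of the 10 glycan enzymes, 6 were lower and 2 higher. Membrane and pump genes went both ways (median -0.04), with Scarb2 and Cln3 higher and the calcium channel gene Mcoln1 lower.

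Ctsh, which encodes the aminopeptidase cathepsin H, was the protease that went the other way. It read 11.19 and 11.20 in Slpi-/- and B6 BMEos, against 6.94 and 5.76 in BMBs and 4.39 and 4.26 in mast cells. The 3 cell types did not overlap, although the B6 BMBs lay close to the background of 5.57. The difference was 28.7-fold between BMEos and BMBs (log2 4.84 ± 0.27, adjusted p = 2.16e-05) and at least 44.2-fold between BMEos and mast cells. Neu1, the sialidase, read 9.66 and 9.71 in Slpi-/- and B6 BMEos, against 7.84 and 8.36 in BMBs, a 3.0-fold difference. Cln3, a membrane protein named for a juvenile neuronal storage disease, read 11.43 and 11.35 in BMEos against 10.34 and 10.25 in BMBs in the same order, and Tfeb 8.74 and 8.55 against 7.59 and 7.66. Scarb2, a membrane protein of lysosomes and late endosomes, was 1.86-fold higher in BMEos, Npc1, the cholesterol exporter of the lysosomal membrane, 1.48-fold, and Man2b1 1.41-fold.

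Glb1 and Sgsh, hydrolases of glycans, differed most in the downward direction in BMEos, followed by the proteases Ctss and Ctsl. Glb1, the lysosomal beta-galactosidase, read 8.41 and 8.37 in Slpi-/- and B6 BMEos, against 11.05 and 11.44 in BMBs, 7.24-fold lower (log2 difference -2.86 ± 0.13, adjusted p = 1.02e-05). Sgsh read 6.40 and 6.22 in BMEos, not far above background, against 8.80 and 8.95 in BMBs, 5.91-fold lower, and Gaa was 3.29-fold lower. Among the proteases, Ctss was 4.23-fold lower (5.88 and 5.93 in BMEos), Ctsl 3.76-fold, Ctsz, a carboxypeptidase, 2.68-fold, Ctsb, a broadly expressed endopeptidase, 2.59-fold, and Ctsc 2.28-fold. The aspartic protease gene Ctsd was high in both cell types, with 12.42 and 12.40 in BMEos and 13.20 and 13.31 in BMBs. Gla was alike in level, with 10.49 and 10.43 against 10.36 and 10.88, and its difference of -0.16 ± 0.15 did not pass (adjusted p = 0.441).

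Against mast cells, BMEos had 16 genes higher and 5 lower, with a median of 0.26 against -0.04 over all genes. In this comparison 51.1% of all genes passed, 24.3% higher and 26.8% lower, so the share of the 36 genes (58.3%) was close to that of all genes. Without the 4 genes below background in mast cells, 12 of 32 were higher and 5 lower, and the median was 0.15. With quantile normalization the split over the 36 was 15 higher and 9 lower. The 5 lower genes were Sgsh (6.6-fold), Glb1 (3.85-fold), Ctsc (3.61-fold), Gaa (3.35-fold) and Tpp1, a tripeptidyl peptidase (1.47-fold). Higher in BMEos, beside Ctsh, were Gla (4.68-fold), Cln3 (4.41-fold), Tfeb (4.03-fold), Neu1 (3.93-fold), Man2b1 (3.61-fold), and Lgmn and Ctsl, at least 3.59-fold and 2.72-fold. Ctss, at 5.88 and 5.93 in BMEos, was barely above background, and its limit over mast cells was 1.13-fold. Both comparisons with mast cells share the mast cell arrays. Glb1 was higher than in mast cells in BMBs and lower in BMEos. The V-ATPase subunit genes Atp6v0d1 and Atp6v1h, the membrane glycoprotein gene Lamp2 and Smpd1 passed in none of the 3 comparisons of cell types.

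The genes that differed least are described over all 10 arrays. Lamp2, an abundant glycoprotein of the lysosomal membrane, lay between 10.33 and 10.69 on every array and passed in none of the tests of cell type, stimulus or genotype. Smpd1 lay between 9.0 and 9.67 and Atp6v0d1, a subunit of the membrane part of the pump, between 9.91 and 10.40, and these too passed nowhere. Atp6v1h lay between 7.61 and 8.10, with both BMB arrays given IgE (7.97 and 8.10) above the other 8. Lamp1, the relative of Lamp2, was highest in BMEos with LPS (11.06 and 11.03) and lowest in mast cells (10.27 and 10.51), against 10.81 and 10.73 in BMEos without LPS and 11.00 and 10.97 in BMBs without IgE.

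The remaining members differed modestly. Gusb, the beta-glucuronidase often used as a reference gene, read 7.88 and 7.83 in Slpi-/- and B6 BMEos, 8.28 and 8.49 in BMBs and 7.56 and 7.58 in mast cells, so that BMBs stood 1.76-fold above mast cells and BMEos 1.45-fold below BMBs. Hexa read 9.78 and 9.70 in BMEos, 10.06 and 10.41 in BMBs and 9.69 and 9.78 in mast cells in the same order, with BMEos and mast cells overlapping (difference 0.00, adjusted p = 0.978). Npc2 read 8.75 and 8.85 in BMEos, 9.57 and 9.29 in BMBs and 8.64 and 8.60 in mast cells. Tpp1, at 9.29 and 9.17 in BMEos, 9.58 and 10.03 in BMBs and 9.82 and 9.75 in mast cells, was lower in BMEos than in both other cell types. Scarb2 had signals of 7.52 and 7.54 in BMEos, 6.65 and 6.62 in BMBs and 6.52 and 6.70 in mast cells, where BMBs and mast cells overlapped.

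**Figure D2:**
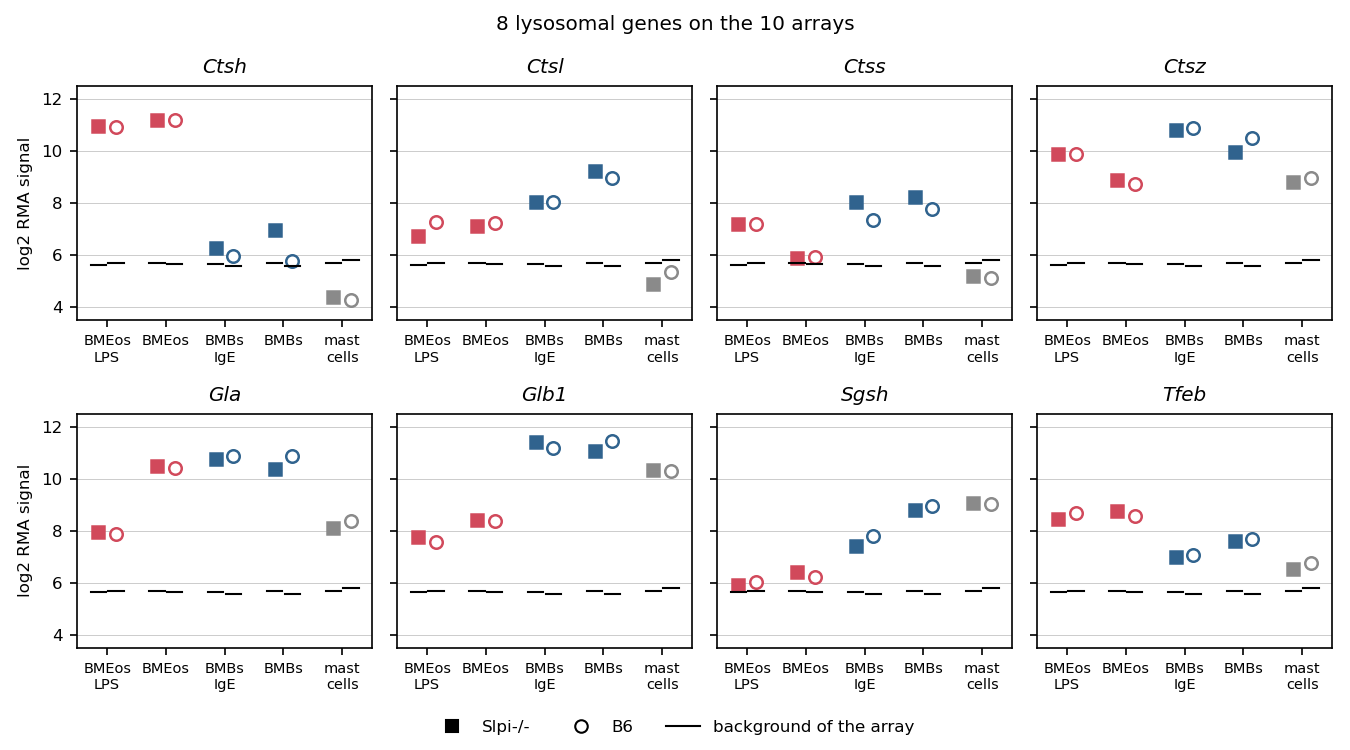
Log2 RMA signals (y axis) of 8 lysosomal genes on the 10 arrays, with BMEos in red, BMBs in blue and mast cells in grey, filled squares for Slpi-/- and open circles for B6, and a short bar at the background of each array. Gla stands at 7.95 and 7.86 in BMEos with LPS and at 10.49 and 10.43 without, and Sgsh is lower in BMBs with IgE than without.

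Crosslinking of IgE by antigen was examined in BMBs 12 h after TNP-ovalbumin. With IgE 12 of the 36 genes fell and 3 rose, with a median of -0.28, against -0.02 over all 13570 genes tested. Among all genes 22.8% passed, 12.2% higher and 10.6% lower. The genes that fell included 4 proteases, 3 glycan enzymes, 2 lipid genes, Cln3, Tfeb and Grn. Sgsh fell most, to 7.42 and 7.78 in Slpi-/- and B6 BMBs with IgE, against 8.80 and 8.95 without it (log2 difference -1.28 ± 0.12, adjusted p = 0.00152). Ctsl read 8.05 and 8.02 with IgE and 9.22 and 8.95 without (-1.05 ± 0.13), and Man2b1 10.75 and 10.86 with IgE and 11.51 and 11.69 without (-0.79 ± 0.09).

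Npc2, the soluble partner of Npc1 in cholesterol transport, fell by 0.75 on the log2 scale, and Tfeb by 0.60, with 6.98 and 7.06 in Slpi-/- and B6 BMBs given IgE and 7.59 and 7.66 in those without it. Grn, Lgmn, Cln3, Ctsd, Psap, Ctsa (cathepsin A, which protects Glb1 and Neu1) and the beta-mannosidase gene Manba fell by 0.34 to 0.52. In every one of these 12 genes both genotypes moved down. The 3 genes that rose were Lipa, with 9.76 and 9.92 in Slpi-/- and B6 BMBs with IgE and 9.01 and 9.38 without (0.65 ± 0.10), Ctsz (0.62 ± 0.13) and Atp6v1h, a regulatory subunit of the proton pump (0.36 ± 0.09).

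The IgE calls rested on few arrays. Without either Slpi-/- BMB array 3 genes passed, and without either B6 BMB array 8. Sgsh, Ctsl and Man2b1 passed whichever array was left out. Marker genes of other cells also differed with IgE. Of 6 eosinophil markers 3 were lower and 0 higher, led by Alox15, a lipoxygenase gene, with 7.02 and 5.99 in Slpi-/- and B6 BMBs with IgE and 10.30 and 9.95 without. Of 13 macrophage and dendritic cell markers tested 4 were lower and 1 higher, and of 10 neutrophil markers 1 was lower, Ly6g, which read 11.15 and 10.95 in Slpi-/- and B6 BMBs with IgE and 12.68 and 12.38 without. Their part in the result was not tested. Mpo, of early neutrophil granules, read 5.84 and 5.60 in Slpi-/- and B6 BMBs with IgE and 6.0 and 8.84 in those without it, so the unstimulated B6 array stood apart from the other 3.

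The LPS response was measured in BMEos after 3 h. With LPS 13 of the 36 genes fell and 4 rose, with a median of -0.21, against 0.02 over all genes. Among all genes 28.9% passed, 12.7% higher and 16.2% lower. With each array centred on its median, 14 members were lower and 2 higher, and all genes split into 1203 higher and 2756 lower in place of 1724 and 2202. All 10 glycan enzymes had a negative difference, and 7 of them fell. The proteases split, with 3 down and 3 up.

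Gla, the gene of alpha-galactosidase A, fell most. It read 7.95 and 7.86 in Slpi-/- and B6 BMEos with LPS, against 10.49 and 10.43 without LPS, 5.89-fold lower (log2 difference -2.56 ± 0.12, adjusted p = 6.34e-05), and the LPS signals were below those of mast cells. Gla is X-linked, and the arrays differ in donor sex, as the values of Xist above show. Without genes of the X and Y chromosomes, 16 of 34 members passed. Manba, which removes mannose residues, read 7.49 and 7.37 with LPS and 8.48 and 8.45 without (-1.03 ± 0.10), and Naglu 6.73 and 6.40 with LPS and 7.51 and 7.41 without (-0.90 ± 0.11). Glb1, already low in BMEos, fell to 7.76 and 7.58, against 8.41 and 8.37 without LPS, and Gaa, Hexa, which acts on gangliosides, and Neu1 fell by 0.59, 0.36 and 0.34.

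Lgmn fell by 0.88 among the proteases, Ctsa by 0.63 and Ctsd by 0.55. Npc1 read 9.42 and 9.50 in Slpi-/- and B6 BMEos with LPS, against 10.20 and 10.28 without it (-0.78 ± 0.10). Asah1 fell by 0.63 and Mcoln1, the TRPML1 channel gene, by 0.51. The genes that rose were Ctss, Ctsz, Ctsb and Lipa. Ctss read 7.19 and 7.20 in Slpi-/- and B6 BMEos with LPS and 5.88 and 5.93 without (1.29 ± 0.10, adjusted p = 0.000444), and Ctsz 9.88 and 9.89 with LPS and 8.87 and 8.74 without (1.08 ± 0.13). Ctsb rose by 0.47 ± 0.13 and Lipa by 0.42 ± 0.10. Beside Ctss, Cd74 read 8.14 and 8.11 in Slpi-/- and B6 BMEos with LPS and 6.42 and 6.37 without, and the macrophage receptor gene Csf1r 10.27 and 10.44 with LPS and 9.62 and 9.43 without. Of the 13 macrophage and dendritic cell markers tested, 6 were higher with LPS and 1 was lower (53.8%, against 28.9% of all genes). The lower one was Itgax, with 8.73 and 8.47 in Slpi-/- and B6 BMEos with LPS and 9.80 and 9.51 without. The list of 14 had mean signals of 6.64 and 6.58 in Slpi-/- and B6 BMEos with LPS and 6.27 and 6.08 without. Their part in the result was not tested.

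Of the 12 genes with TCACGTG in their window, 8 fell with LPS and 0 rose. Of the 19 genes with a window and no such letters, 3 fell and 3 rose. Over all genes tested, 24.3% of 682 with the letters fell and 8.8% rose, against 16.1% and 12.9% of 10061 without them. Of the genes whose palindromes are printed above, Ctsd, Ctsa, Gla and Mcoln1 fell, while Cln3 (-0.23) and Atp6v0d1 (-0.11) did not pass. The sequences are shown because of these falls, so the falls are not separate support. Among the 8 genes were the glycan enzyme genes Gaa, Gla, Glb1 and Naglu, and all 10 glycan enzymes had a negative difference. Gla is X-linked, and LPS and donor sex cannot be told apart. A link between the letters and the falls was not tested. With IgE, 5 of the same 12 genes fell and 0 rose, against 7 and 2 of the 19 without the letters, and over all genes 12.9% fell and 13.5% rose with the letters, against 10.6% and 12.4% without them.

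**Figure D3:**
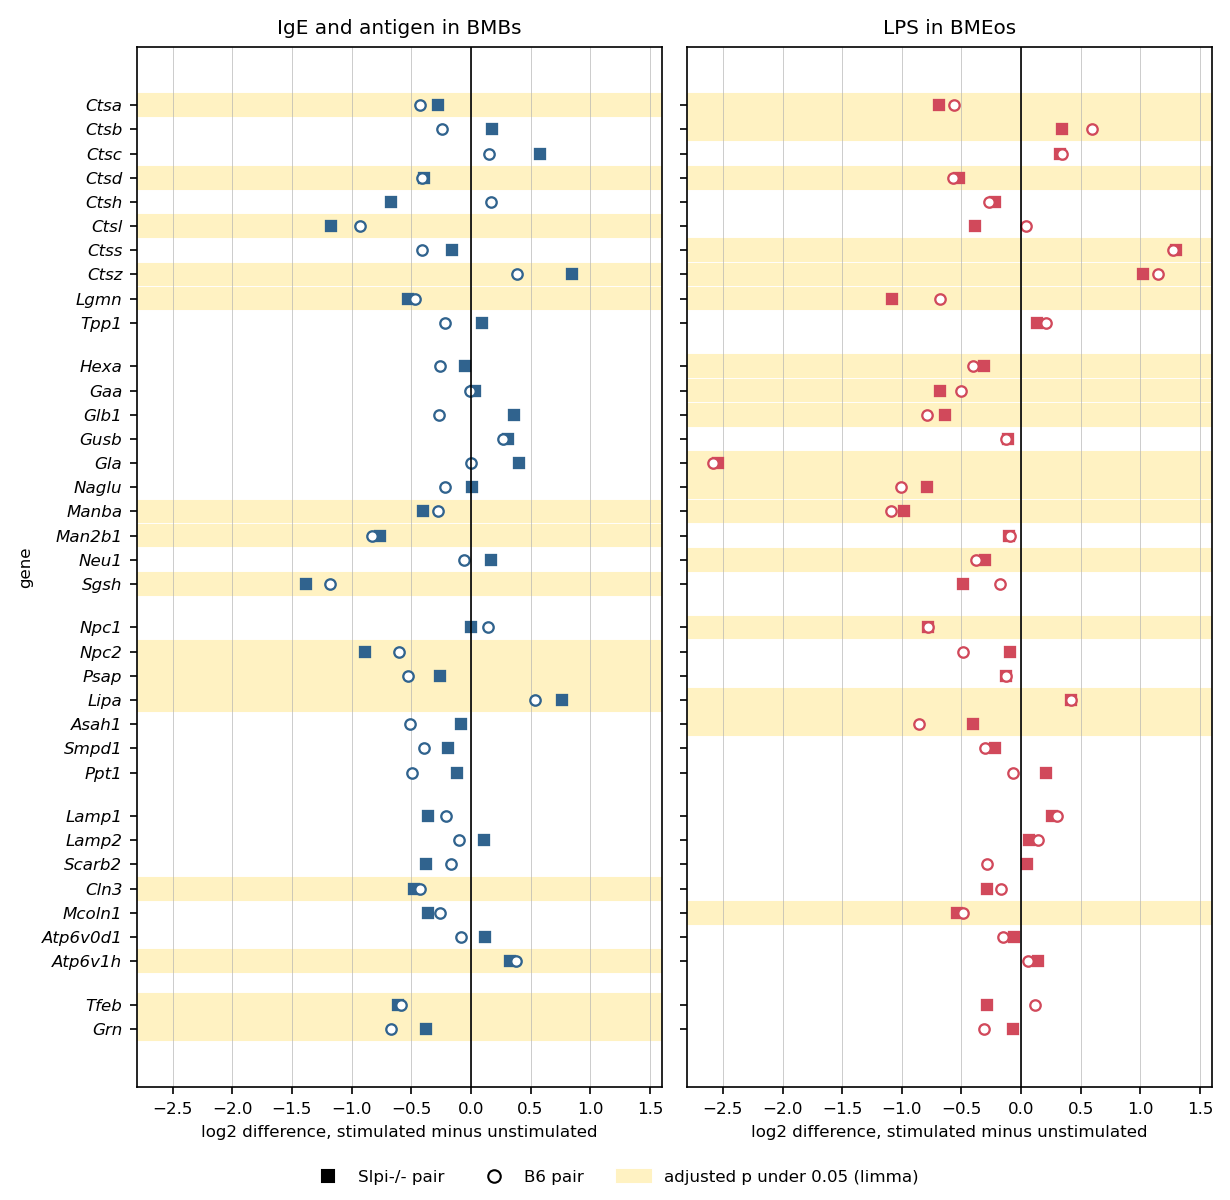
Log2 differences, stimulated minus unstimulated (x axis), of the 36 lysosomal genes (rows) for IgE and antigen in BMBs (left) and LPS in BMEos (right), with a filled square for the Slpi-/- pair and an open circle for the B6 pair of arrays, and a yellow band where limma's adjusted p was under 0.05. Gla with LPS lies farthest from 0 at -2.56, and Ctsz and Lipa lie above 0 in both panels.

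The responses were compared directly, LPS in BMEos minus IgE in BMBs. They differed for 10 of the 36 genes, 5 in each direction. That share, 27.8%, was close to the 23.0% of all genes. Gla, Npc1, Naglu, Manba and Gaa had the lower LPS response, with differences of -2.76 for Gla and -0.60 to -0.85 for the others. Gla read 10.76 and 10.88 in Slpi-/- and B6 BMBs with IgE and 10.36 and 10.88 without. Ctss (1.57), Sgsh (0.94), Ctsl (0.87), Man2b1 (0.70) and Lamp1 (0.57) had the lower IgE response. Ctsz and Lipa rose with each stimulus, and Ctsa, Ctsd, Lgmn and Manba fell with each. Of these 6 genes Manba also passed the test of the difference (-0.69). The stimuli differ in agent, duration and cell type, which cannot be told apart.

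Loss of SLPI was compared over the 5 settings of cell type and stimulus. In Slpi-/- cells 0 of the 36 genes differed from B6 cells (limma, adjusted p under 0.05), as did 0.0% of all 13570 genes. Slpi itself did not pass, although it read 6.55 and 6.35 in Slpi-/- BMBs without and with IgE, against 11.42 and 11.33 in B6. This test therefore cannot show that the 36 genes were unaffected. At an unadjusted p under 0.05 there were 722 genes and 1 of the 36, and the methods' t-test on the same pairs gave 0 after adjustment and 1 at an unadjusted p under 0.05. The fitted differences were between -0.18 (Ppt1 and Npc1) and 0.33 (Ctsh).

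The pairs of BMBs leaned to one side. In BMBs with IgE 28 of the 36 genes were lower in Slpi-/- than in B6 cells, with a median of -0.12, and in unstimulated BMBs 29, with a median of -0.22. Those are 77.8% and 80.6% of the 36 genes, and over all 13570 genes 52.2% and 54.8% were lower, with medians of 0.0. In BMEos 16 genes were lower with LPS and 14 without it, and in mast cells 17, with medians of 0.01 to 0.05. The lowest genes of unstimulated Slpi-/- BMBs were Grn (11.69 against 12.26 in B6), Ctsz (9.94 against 10.51) and Ppt1 (10.52 against 11.06). Ctsh went the other way, with 6.94 in Slpi-/- and 5.76 in B6 BMBs, and Ctss read 8.04 in Slpi-/- and 7.36 in B6 BMBs with IgE.

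The macrophage and dendritic cell markers differed between the same arrays. In unstimulated BMBs Cd74 read 9.47 in Slpi-/- and 8.47 in B6 cells, H2-Aa 8.35 and 7.44, and Itgax 7.12 and 6.12, while Mrc1 read 6.34 and 6.97 and C1qb 6.65 and 7.05. Of the list of 14 markers 8 were higher and 6 lower in Slpi-/- BMBs, with mean signals of 6.47 in Slpi-/- and 6.28 in B6 cells, and 8 and 9 were above background. Their part in the differences of Ctsh and Ctss was not tested. Neutrophil markers differed more. Of 10, 4 were above background in unstimulated Slpi-/- BMBs and 8 in B6 BMBs, with mean signals of 6.04 and 7.15. The median difference was -1.47, and Mpo (-2.84), S100a8 (-1.94) and Ngp (-1.75) were the lowest in Slpi-/- cells. In these unstimulated cells 8 of the 10 were lower and 2 higher in Slpi-/-, among the higher Ly6g, with 12.68 against 12.38 in B6. With IgE the means were 5.80 and 5.69. Their part in the lean of the BMB pairs was not tested. Each of these pairs is 1 array per genotype, with no replicate check.

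**Figure D4:**
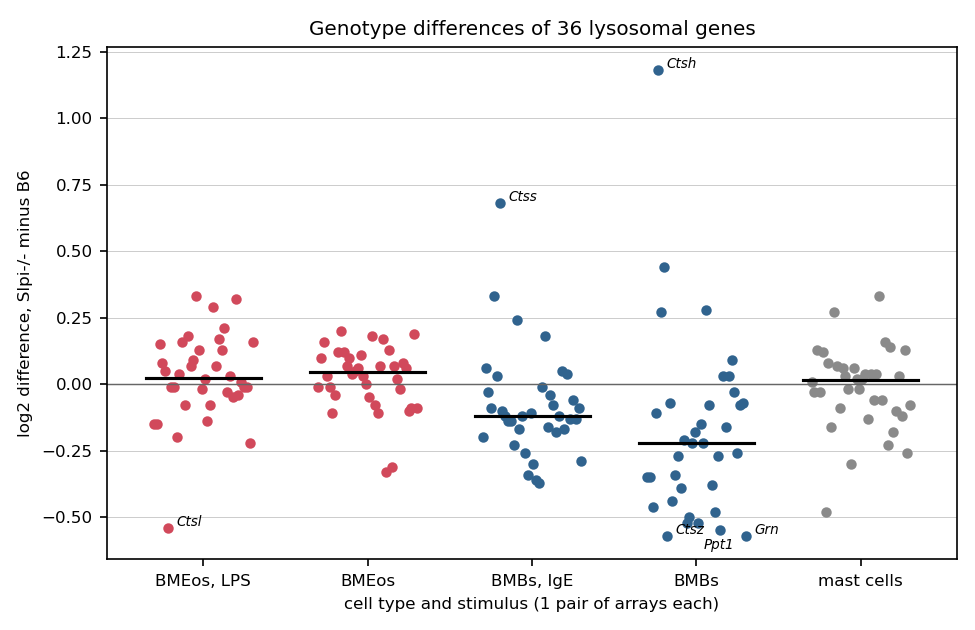
Log2 differences, Slpi-/- minus B6 (y axis), of the 36 lysosomal genes (points) in 5 settings of cell type and stimulus (x axis), each from 1 pair of arrays, with the median as a black bar. The median lies at -0.22 in unstimulated BMBs and between -0.12 and 0.05 elsewhere, and Ctsh stands at 1.18.

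Other genes of the pathway were counted from lists of known lysosomal function. Of 27 other hydrolases and activators, 9 were higher and 4 lower in BMBs than in mast cells, and 4 were higher and 11 lower in BMEos than in BMBs. Those are 48.1% and 55.6% of the list, against 36.7% and 39.7% of all genes. Arsb, the sulfatase that acts on dermatan sulfate, read 9.68 and 9.81 in Slpi-/- and B6 BMEos, 7.33 and 7.65 in BMBs and 5.33 and 5.36 in mast cells, at least 16.2-fold higher in BMEos than in mast cells, whose signals were below background. Ids, which removes sulfate from heparan and dermatan sulfate, ran in the opposite order, with 7.92 and 7.89 in BMEos, 9.66 and 9.70 in BMBs and 10.16 and 10.17 in mast cells. With IgE 2 of the 27 rose and 7 fell (33.3%, against 22.8% of all genes). With LPS 2 rose and 9 fell (40.7%, against 28.9% of all genes). Acp2, a lysosomal acid phosphatase, rose with LPS by 1.13, and Pla2g15, a lysosomal phospholipase, fell by 0.99.

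Among 24 other lysosomal membrane genes tested, 8 were higher and 2 lower in BMBs than in mast cells. That share, 41.7%, was close to the 36.7% of all genes. Cd68, a heavily glycosylated protein of late endosomes, differed most (8.94 and 9.22 in Slpi-/- and B6 BMBs, against 6.94 and 6.95 in mast cells). With LPS 8 of the 24 fell and 2 rose in BMEos (41.7%, against 28.9% of all genes), led by the sialic acid exporter Slc17a5 (-1.17). Of 14 other V-ATPase subunit genes, 7 were higher and 0 lower in BMBs than in mast cells, among them Atp6v1b2 (2.06) and Atp6v0a1 (1.74), while with LPS 2 rose and 4 fell in BMEos. Of 14 genes of enzyme sorting, 4 were higher and 3 lower in BMBs than in mast cells. The sorting receptor gene Sort1 was at least 10.2-fold higher in BMEos than in mast cells, and Igf2r, the large mannose 6-phosphate receptor gene, was lower in BMEos (-1.26) and in BMBs (-1.53).

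Other MiT factor genes were read beside Tfeb. Mitf, which mast cells need for their development, read 6.30 and 6.02 in Slpi-/- and B6 BMEos, 7.52 and 7.73 in BMBs and 10.66 and 10.57 in mast cells, the reverse of the order of Tfeb. With LPS Mitf rose by 0.94 and Tfe3, another MiT factor gene, by 0.88 in BMEos, where Tfeb did not pass (-0.09). Tfec, the fourth MiT gene, was above background on 1 of the 10 arrays, that of unstimulated B6 BMBs. In BMEos with LPS Fnip2, Flcn and Fnip1, whose proteins control the nutrient response of TFEB and TFE3, fell by 1.37, 1.05 and 0.92. Of 16 genes of MiT factors and nutrient sensing tested, 2 rose and 6 fell with LPS, a larger share than the 28.9% of all genes. With IgE in BMBs 1 of these 16 rose and 1 fell, a smaller share than the 22.8% of all genes. Of 3 cystatin and stefin genes tested, inhibitors of cysteine cathepsins, Cstb rose with IgE (0.91) and Cst3 fell (-0.44), and Cst7 rose with LPS (0.48).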

How the data were processed

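RNA of 10 BM-derived cell cultures was measured on Mouse Gene 1.0 ST arrays. The authors used RMA (package affy) to summarize the probes and deposited log2 signals, which were taken as they stand. The genome build of the array annotation is not given in the sources used here. Of 34760 probe sets, 21640 carry 1 gene symbol, and a gene with several was read by its probe set of highest mean. RMA gives no detection call and shrinks probe outliers, so a signal near background has only a limit. Such limits set the mean of the brighter group against the dimmer group's background. The number of arrays limits the precision.

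Tests used R 4.3.3 with limma 3.58.1 (a linear fit with eBayes moderation, Benjamini-Hochberg adjustment, threshold 0.05) on genes above background on at least 1 array of the fit. Cell types were compared in the 6 unstimulated arrays with genotype as a term (2 residual degrees of freedom), stimuli in all 10 with 1 mean per cell type and genotype (2 residual degrees of freedom), and genotype with a block for each of 5 settings (4 residual degrees of freedom). The pairing comes from the design. The steps were tested on simulated data. Every member was named, and from other lists the 3 highest and 3 lowest that passed, of which some are given. Csf1r, Cd74, H2-Aa, Itgax, Mrc1, C1qb, Alox15, Ly6g, Mpo, S100a8, Ngp, Ppbp and Tfec stand beside results as context. The members and lists were chosen with earlier results of these data known. Alternatives were quantile normalization, median centring, the mean of probe sets, no filter, another background, a variance trend, other sets of arrays, each array left out and the methods' t-test. Listed genes without a probe set of 1 symbol were not analysed here. The software for tables and plots was Python 3.11.15 with matplotlib 3.10.9 and pandas 2.3.3.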

Additional observations from a re-analysis of the deposited data

Results flagged for a closer look

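The LPS response of BMEos and the IgE response of BMBs differed for 10 of the 36 lysosomal genes (27.8%). That share was close to the 23.0% of all 13570 genes. The test was of the difference itself (limma, LPS minus IgE on the log2 scale, 1 array per condition and genotype). In BMEos LPS and the sex of the donors cannot be told apart. The differences were -2.758 for Gla, -0.8458 for Npc1, -0.7904 for Naglu, -0.6938 for Manba and -0.5995 for Gaa, all of which fell with LPS. They were 1.573 for Ctss, 0.9438 for Sgsh, 0.8714 for Ctsl, 0.6991 for Man2b1 and 0.5652 for Lamp1. In each of the 10 genes both genotypes showed the direction. The adjusted p was between 0.000302 (Gla) and 0.0295 (Lamp1). Ctss, Gla and Npc1 passed whichever array was left out.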

How the results depend on the processing

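In the 3 comparisons of cell types, with IgE and with LPS, the side with more calls was the same in every setting run that made calls. The methods' t-test, which has 1 degree of freedom on 2 pairs, passed 0 of the 36 genes after adjustment for BMBs against mast cells, BMEos against BMBs, BMEos against mast cells, IgE in BMBs and LPS in BMEos, and 6, 4, 16, 7 and 12 at an unadjusted p under 0.05. Without a filter on signal IgE called 9 genes. With 1 array left out, and the lone array assumed to vary like the others, IgE called 3 to 11 genes, LPS 8 to 18 and their difference 3 to 9. LPS called 9 without either B6 BMEos array and 8 without either Slpi-/- one, and the difference 3 without either B6 BMEos array and 6 without a Slpi-/- array of BMEos or BMBs. Calls kept with each array left out numbered 20 of 25 for BMBs against mast cells, 19 of 26 for BMEos against BMBs, 18 of 21 for BMEos against mast cells, 3 of 15 for IgE (Ctsl, Man2b1 and Sgsh), 7 of 17 for LPS (Ctss, Ctsz, Gla, Lgmn, Manba, Naglu and Npc1) and 3 of 10 for the difference. Without X and Y genes, chosen after seeing the data, LPS called 16, IgE 15 and the difference 9. Signals near background limit Ctsh, Ctsl, Ctss and Lgmn in mast cells and Ctss and Sgsh in BMEos.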
